A study of Mus musculus with 20 samples.

Results

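Mouse liver was examined for the cytochrome P450 family 2 (Cyp2) genes outside the Cyp2b, Cyp2e and Cyp2f subfamilies. Members were all rows of the deposited count table whose symbol is Cyp2 followed by a, c, d, g, j, r, s, t, u or w and a number, which gave 42 of 46095 rows. The rule used symbols, not measured values. RNA was sequenced from the livers of 20 mice in 4 groups of 5, at 31 to 33 weeks of age: wild-type (WT) mice on chow, WT mice on a NASH diet (one that induces non-alcoholic steatohepatitis), and mice with a liver-specific knockout of Pck1 (KO) on each of these diets, all kept on their diet for 24 weeks. Pck1 encodes cytosolic phosphoenolpyruvate carboxykinase, an enzyme of gluconeogenesis. The sources used here do not give the promoter that drove the recombinase, the makeup of the NASH diet or the sex of the mice, nor whether WT mice carried floxed alleles or were littermates. The comparisons ask how the knockout and the diet, alone and together, changed the liver transcriptome.

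Cyp2 enzymes are membrane-bound monooxygenases of the endoplasmic reticulum that use heme iron, oxygen and electrons from cytochrome P450 reductase. In hepatocytes they oxidize drugs, steroids, bile acids and fatty acids, and several Cyp2c and Cyp2j enzymes turn arachidonic acid into epoxides that soluble epoxide hydrolase then opens. Mouse Cyp2 genes lie in clusters of recent duplicates, and many of them are expressed mainly in one sex, under the control of the growth hormone pattern acting through STAT5.

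Libraries held 9958935 to 20601955 counts. The Y-linked genes Uty, Ddx3y, Eif2s3y and Kdm5d read 13 libraries as male and 7 as female: all of WT chow was male, replicate 4 was the only male of WT NASH, replicates 3 and 5 were the females of KO chow, and replicate 2 was the only female of KO NASH. Genotype and diet are therefore mixed with sex, and values with sex as a term of the model or in males alone stand beside the results. In 6 libraries (WT chow 3, 4 and 5, WT NASH 4, KO chow 4 and 5) longer genes were counted relatively less, a slope of -0.35 to -0.25 in log2 CPM (counts scaled for library size) for each doubling of exonic length, while the other 14 had slopes of 0.01 to 0.19. Pck1 was at 1701 to 4641 CPM in the WT and at 300.4 to 861 CPM in the KO libraries, with no overlap. Hepatocyte markers (Alb, Apoa1, Ttr, Tat) summed to 41530 to 114700 CPM in every library, and kidney markers (Umod, Slc12a1, Kap) to at most 0.237 CPM. Sums over 5 macrophage markers were 244 to 1049 CPM in the WT chow mice and 379 to 1704 CPM in KO chow, with 1 of the 5 called higher (Cd68), and 287 to 408 CPM in KO NASH against 344 to 1017 CPM in the WT NASH mice, with none called. Of 4 endothelial markers, Lyve1 and Kdr were called higher in KO NASH than in WT NASH (1.62 and 0.66, edgeR adjusted p of 0.00866 and 0.0323), with sums of 130.5 to 227 CPM against 90.6 to 147 CPM. Of 4 T and B cell markers, Cd3g was called lower there (-1.82, edgeR adjusted p = 0.0371), with sums of 1.25 to 3.89 CPM against 3.81 to 11.8 CPM. The part of these cells in the Cyp2 levels was not tested. These are whole livers, so fewer cells of a type and less RNA per cell cannot be told apart. The labels number the mice but name no litters or batches, so a p-value covers the spread between these mice.

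Some members are related duplicates whose levels behave alike or differently, and the 250 bases before the start of 3 such pairs are shown for comparison (RefSeq, GRCm38.p6). Capitals mark bases that differ from the partner or have no partner base in a global alignment of the pair. Cyp2c37 and Cyp2c50, both lower in the KO on both diets, are identical at 215 of 255 aligned columns (84.3%).
Cyp2c37, chr19:39992174-39992423, plus strand: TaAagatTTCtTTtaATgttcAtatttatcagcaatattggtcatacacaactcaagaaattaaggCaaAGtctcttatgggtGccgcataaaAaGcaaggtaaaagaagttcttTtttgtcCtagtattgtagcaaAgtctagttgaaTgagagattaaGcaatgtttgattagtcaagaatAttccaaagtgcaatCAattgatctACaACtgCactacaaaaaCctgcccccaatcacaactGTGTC
Cyp2c50, chr19:40089429-40089678, plus strand: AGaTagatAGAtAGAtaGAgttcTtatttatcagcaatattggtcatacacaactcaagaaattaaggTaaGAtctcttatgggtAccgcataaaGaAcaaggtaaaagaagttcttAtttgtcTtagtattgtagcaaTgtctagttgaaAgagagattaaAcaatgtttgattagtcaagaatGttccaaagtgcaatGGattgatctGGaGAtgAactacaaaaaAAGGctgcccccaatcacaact

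Cyp2a4 and Cyp2a5 are identical at 245 of 251 columns (97.6%), and Cyp2a4 separated female from male libraries whereas Cyp2a5 did not.
Cyp2a4, chr7:26306942-26307191, plus strand: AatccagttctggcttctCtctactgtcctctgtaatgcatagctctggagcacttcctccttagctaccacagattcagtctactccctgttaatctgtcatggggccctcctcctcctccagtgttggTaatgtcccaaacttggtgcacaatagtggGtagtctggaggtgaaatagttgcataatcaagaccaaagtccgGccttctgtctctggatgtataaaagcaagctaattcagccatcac
Cyp2a5, chr7:26835089-26835338, plus strand: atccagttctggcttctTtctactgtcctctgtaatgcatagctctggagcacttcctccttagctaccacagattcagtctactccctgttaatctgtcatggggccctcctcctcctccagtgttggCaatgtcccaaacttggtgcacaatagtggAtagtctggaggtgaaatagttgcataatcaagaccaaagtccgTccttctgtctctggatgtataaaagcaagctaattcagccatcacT

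Cyp2d9 and Cyp2d10 are identical at 209 of 254 columns (82.3%), and Cyp2d9 separated the sexes whereas the levels of Cyp2d10 overlapped between them.
Cyp2d9, chr15:82452127-82452376, plus strand: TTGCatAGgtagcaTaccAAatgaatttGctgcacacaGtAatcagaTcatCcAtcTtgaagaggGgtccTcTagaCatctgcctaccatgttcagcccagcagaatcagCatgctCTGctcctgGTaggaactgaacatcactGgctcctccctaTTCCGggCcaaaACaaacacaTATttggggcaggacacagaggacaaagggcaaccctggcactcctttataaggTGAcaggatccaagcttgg
Cyp2d10, chr15:82407195-82407444, minus strand: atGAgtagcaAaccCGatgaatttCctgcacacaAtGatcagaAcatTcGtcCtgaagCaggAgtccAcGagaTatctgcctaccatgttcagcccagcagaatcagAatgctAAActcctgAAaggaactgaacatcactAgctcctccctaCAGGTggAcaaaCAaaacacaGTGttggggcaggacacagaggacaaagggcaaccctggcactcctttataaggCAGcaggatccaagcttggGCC

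RefSeq gave 35 promoters for 33 of the 42 genes. The letters TATAAA, searched on both strands of these 250 bases, occurred in 17 of the 35, against 12.4% of 32851 promoters of all genes. The palindrome TTCNNNGAA, a form of the STAT5 motif, occurred in 2 of the 35, against 7.02% of all promoters. These 2 were the promoters of Cyp2j11 and Cyp2j12, genes without a count in any library.

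Of the 42 members, 30 had enough counts to be tested among 14440 genes: all 4 Cyp2a, 13 of 15 Cyp2c, 7 of 9 Cyp2d, 3 of 8 Cyp2j, and Cyp2g1, Cyp2r1 and Cyp2u1. Another 5 (Cyp2j7, Cyp2j11, Cyp2j12, Cyp2t4, Cyp2w1) had no count in any library, and 7 (Cyp2c65, Cyp2c66, Cyp2d12, Cyp2d34, Cyp2j8, Cyp2j13, Cyp2s1) had at most 16 counts in a library. Per kilobase of exon, the highest mean level in WT chow was that of Cyp2c29, an arachidonic acid epoxygenase, at 2244 CPM per kilobase. Cyp2c50 followed at 910.4, Cyp2c37 at 674, Cyp2c54 at 599 and Cyp2d9 at 595 CPM per kilobase. Cyp2r1, a vitamin D 25-hydroxylase, was at 6.59 and Cyp2u1, a fatty acid hydroxylase, at 1.19 CPM per kilobase.

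Together the members made up a smaller share of the liver's counts in the knockout. Of all counts they took 0.371% to 0.863% in KO chow, against 1.26% to 1.99% in WT chow. On the NASH diet they took 0.649% to 1.09% in the KO, against 1.31% to 1.7% in the WT. No KO library reached the lowest WT library, while the diets overlapped within each genotype. Cyp2c29 alone held 24% to 42.2% of the members' counts in WT chow and 4.09% to 10.5% in KO chow, with 13.8% to 32.6% in WT NASH and 13.5% to 23.9% in KO NASH.

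**Figure D1:**
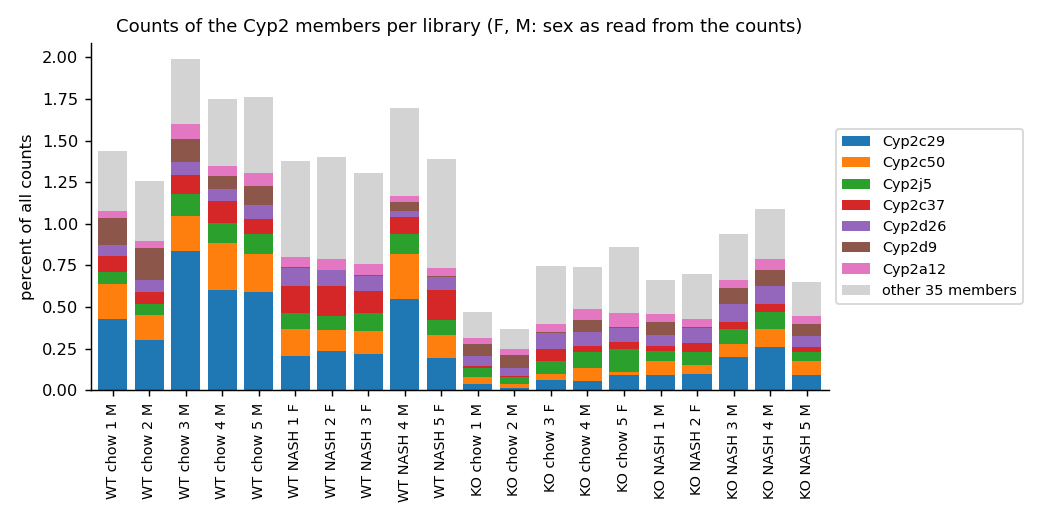
Share of each library's counts held by the 42 Cyp2 members, in percent of all counts, 1 bar per mouse, with the 7 members of highest mean in colour and the other 35 in grey. The 10 WT bars reach 1.26% to 1.99% and the 10 KO bars 0.371% to 1.09%, and Cyp2c29 holds 4.09% to 10.5% of the members' counts in KO chow, less than in every library of the other groups.

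In KO chow against WT chow, 12 of the 30 tested members (40%) passed an adjusted p under 0.05 by edgeR's quasi-likelihood test, against 5.53% of all genes tested. Lower in the KO were 10 (background 2.49%): Cyp2c29, Cyp2c37, Cyp2c44, Cyp2c50, Cyp2c54, Cyp2c55, Cyp2c67, Cyp2d11, Cyp2d13 and Cyp2d40. Cyp2a4 and Cyp2a22 were higher (background 3.03%). The median log2 fold change was -0.73 over the members and 0.00 over all genes, and 9 members had all KO libraries below all WT libraries (background 2.65%) and none had all above (background 2.26%).

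The largest fall was that of Cyp2c29 (chr19:39269405-39330713, GRCm38, as all positions here). It measured 4268, 2921, 11170, 8129 and 7852 CPM in the WT chow mice, replicates 1 to 5. In KO chow it measured 383, 125, 609.9, 686 and 1071 CPM. The groups did not overlap (edgeR log2 fold change of -3.58 with an SE of 0.593, adjusted p = 0.00168), and the highest KO library lay well below the lowest WT one. The call held in all 16 alternative settings and without each of the 20 libraries in turn.

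Several other arachidonic acid epoxygenases of the Cyp2c cluster on chromosome 19 fell with it. Cyp2c50 (chr19:40089688-40113950) was at 2072, 1456, 2794, 3868 and 3093 CPM in the WT chow mice and at 386, 195, 341, 921 and 244 CPM in KO chow, without overlap (edgeR log2 fold change of -2.67 with an SE of 0.432, adjusted p = 0.00151). Cyp2c54 (chr19:40037940-40073827) was at 896, 661, 1111, 1378 and 1303 CPM in the WT chow mice and at 174, 89.5, 92.6, 408 and 86 CPM in KO chow (edgeR log2 fold change of -2.66 with an SE of 0.499, adjusted p = 0.00421). KO replicate 4 was the highest KO library for both genes and still lay below every WT library. Cyp2c44 (chr19:44005022-44029208), which makes epoxides of arachidonic acid and stands apart from the main cluster, was at 267, 191, 326, 242 and 365 CPM in the WT chow mice and at 91.2, 61.9, 88.9, 140.1 and 89.3 CPM in KO chow (edgeR log2 fold change of -1.56 with an SE of 0.247, adjusted p = 0.00138). Its KO libraries also lay below all WT libraries, and no stretch of 50 bases of its transcripts occurs in another gene.

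Cyp2c37 (chr19:39992424-40012243), another arachidonic acid metabolizing enzyme, was at 946, 690, 1519, 1775 and 1216 CPM in the WT chow mice and at 116, 52.3, 726, 386 and 537 CPM in KO chow (edgeR log2 fold change of -1.76 with an SE of 0.48, adjusted p = 0.037). KO replicate 3, a female, overlapped the lowest WT library. Cyp2c67 (chr19:39608842-39649051) was at 272, 187, 775, 689.9 and 587 CPM in the WT chow mice and at 67.5, 34.1, 113, 192 and 252 CPM in KO chow (edgeR log2 fold change of -1.93 with an SE of 0.487, adjusted p = 0.0245), again with the females and KO replicate 4 as the highest KO libraries and an overlap between the groups. Cyp2c55 (chr19:39007019-39042693), which is known to make hydroxyeicosatetraenoic acids, was far less abundant, at 4.38, 2.92, 8.56, 3.7 and 7.14 CPM in the WT chow mice and 0.324, 0.362, 0.644, 0.944 and 1.58 CPM in KO chow, without overlap (edgeR log2 fold change of -2.83 with an SE of 0.789, adjusted p = 0.0404). Cyp2c67 shares 52.8% of its 50-base stretches with other genes, most with Cyp2c40, and Cyp2c37 30.1%, most with Cyp2c50. Cyp2c54 shares 25.7%, also most with Cyp2c50. Counts of these genes may therefore be split or shared.

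Among the Cyp2d genes on chromosome 15, Cyp2d40 (chr15:82759833-82764183) was at 31.6, 27.4, 49.5, 36.9 and 47.2 CPM in the WT chow mice and 15.8, 7.44, 19, 8.2 and 14 CPM in KO chow, without overlap (edgeR log2 fold change of -1.58 with an SE of 0.347, adjusted p = 0.0117). Cyp2d13 (chr15:82636750-82642045), which RefSeq lists as a transcribed pseudogene, was at 169, 147, 300.4, 311 and 319 CPM in the WT chow mice and 31.8, 31.6, 105, 62.6 and 111 CPM in KO chow (edgeR log2 fold change of -1.86 with an SE of 0.435, adjusted p = 0.0171). Its KO libraries all lay below the WT libraries, and the females were the highest of them. Cyp2d11 fell as well, at levels near 1 CPM (edgeR log2 fold change of -1.63 with an SE of 0.402, adjusted p = 0.0226). Without strand information, antisense or overlapping transcripts cannot be told apart from these genes.

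The 2 members that rose did so mainly in females. Cyp2a4 (chr7:26307169-26315088), a steroid hydroxylase, was at 1.78, 3.58, 1.09, 1.61 and 4.02 CPM in the WT chow mice and 3.61, 1, 342, 29.6 and 513 CPM in KO chow (edgeR log2 fold change of 6.18 with an SE of 1.5, adjusted p = 0.0213). The females of KO chow, replicates 3 and 5, were far above the rest, the KO male replicate 4 was above every WT male, and the KO male replicate 2 was below every one. Cyp2a22 (edgeR log2 fold change of 4.38 with an SE of 1.22, adjusted p = 0.0396) showed its highest KO values in the same 2 mice. With sex as a term neither was called, with log2 fold changes of 2.20 for Cyp2a4 and 1.55 for Cyp2a22 (edgeR adjusted p of 0.143 and 0.373). The part of sex and of genotype in these rises cannot be told apart in the groups as a whole.

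With sex as a term, 10 members were called on chow (5.84% of all genes in that model), all lower, 9 of them among the 12 above. Cyp2d9, a male-typical testosterone hydroxylase, was the added one (log2 fold change -1.22, edgeR adjusted p = 0.0323), and Cyp2a4, Cyp2a22 and Cyp2c55 were no longer called. In males alone, 5 WT against 3 KO, 12 members were called (6.23% of all genes), all lower, with Cyp2c29 at -4.10 (edgeR adjusted p = 0.00457), Cyp2c70 at -2.97 (edgeR adjusted p = 0.0253) and Cyp2g1 at -4.60 (edgeR adjusted p = 0.0113). Cyp2g1 rests on few counts there, 1, 0 and 2 in the KO males and 6 to 44 in the WT males. Among the 14 libraries of positive slope, which leave 2 WT and 3 KO mice on chow, 7 were called (5.33% of all genes), all lower, 6 of them shared. Leaving out WT chow 3 or 4 or KO chow 1 or 2 took the count of 12 to 7, beside 2.9%, 3.33%, 2.56% and 2.37% of all genes. Cyp2c37, Cyp2c55 and Cyp2c67 each lost their call without WT chow 3 or 4 or KO chow 1 or 2, the highest edgeR adjusted p being 0.0946, 0.112 and 0.0747. Cyp2c37 and Cyp2c55 also lost it without KO chow 4, Cyp2c55 without WT chow 1, KO chow 3 or KO NASH 3, and all 3 without WT chow 5. Cyp2d13 lost its call without KO chow 1 or 2 (edgeR adjusted p up to 0.0541) and Cyp2d11 without either of these or WT chow 5 (up to 0.0671 by edgeR). Cyp2a4 lost it without WT chow 3 or 4 (edgeR adjusted p up to 0.0593), and Cyp2a22 without WT chow 1 to 4 or KO chow 3 or 5 (edgeR adjusted p up to 0.0899, log2 fold change 3.18 to 5.15).

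Some abundant members did not pass the test on chow. Cyp2d26 was at 892 ± 237 CPM in the WT chow mice and 783 ± 292 CPM in KO chow (mean ± SD, n = 5 each; 95% interval of the log2 fold change -0.80 to 0.42). Cyp2j6 was at 143 ± 46.2 CPM and 140.4 ± 34.5 CPM (interval -0.63 to 0.57), and Cyp2d22 at 213 ± 88.1 CPM and 246 ± 83.8 CPM (interval -0.41 to 0.83). Intervals of Cyp2j5, an epoxygenase (-1.31 to 0.33), Cyp2a12, a bile acid and steroid hydroxylase (-1.15 to 0.29), and Cyp2a5, the coumarin hydroxylase (-2.22 to 0.36), also held 0. Cyp2d10 had a log2 fold change of -0.84 with an interval of -1.48 to -0.20 and did not pass the adjustment (edgeR adjusted p = 0.113). These intervals are not adjusted for the number of genes, and a missed threshold does not show equal levels.

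**Figure D2:**
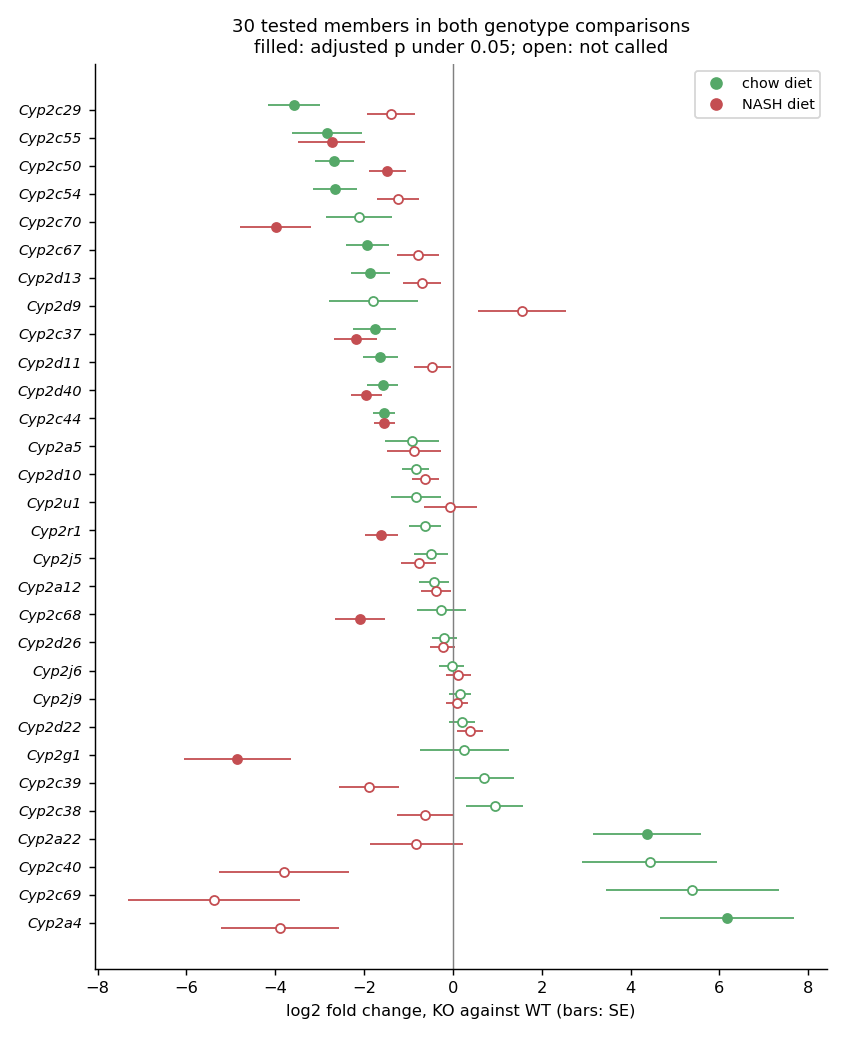
Log2 fold change of KO against WT for the 30 tested members on chow (green) and on the NASH diet (red), with SE bars, filled where the edgeR adjusted p is under 0.05. Cyp2c37, Cyp2c44, Cyp2c50, Cyp2c55 and Cyp2d40 are filled and negative on both diets, and Cyp2a4 and Cyp2a22 are filled and positive on chow.

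On the NASH diet, 9 of 30 members (30%) were called in KO against WT, against 9.65% of all genes, and all 9 were lower (background 4.74%, and 4.9% higher). They were Cyp2c37, Cyp2c44, Cyp2c50, Cyp2c55, Cyp2c68, Cyp2c70, Cyp2d40, Cyp2g1 and Cyp2r1. The median log2 fold change was -1.05 over the members, with 26 of 30 negative, and 0.00 over all genes. In the groups as they stand, WT NASH held 4 females and KO NASH 1. With sex as a term the member median was -0.78 (24 negative), and with sex and slope as terms it was -0.45 (18 negative). In the groups alone, 8 members had all KO libraries below all WT libraries (background 6.44%) and none had all above (background 7.67%). The genes called on both diets were 5, Cyp2c37, Cyp2c44, Cyp2c50, Cyp2c55 and Cyp2d40, which is 41.7% of those called on chow and 55.6% of those called on the NASH diet. The 2 comparisons share no library, but they come from 1 model with 1 estimate of the spread. The share of all genes called in both is not given here, so this overlap has no background beside it.

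Cyp2c70, the mouse enzyme that makes muricholic acids, the hydrophilic bile acids of rodents, had the largest difference among the called members above 100 CPM in every WT NASH library. It lies at chr19:40153353-40187333 and measured 369, 598, 472, 3650 and 883 CPM in the WT NASH mice, replicates 1 to 5. In KO NASH it measured 65.1, 142, 26.5, 86.8 and 55.9 CPM. The groups did not overlap (edgeR log2 fold change of -3.99 with an SE of 0.804, adjusted p = 0.00464), and WT replicate 4, the male, was the highest by far. The call held without each library in turn, with a log2 fold change of -2.95 to -4.35, and no 50-base stretch of its transcripts occurs in another gene.

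Of the genes lower on both diets, Cyp2c44 was at 335, 180.1, 193, 160.4 and 164 CPM in the WT NASH mice and 70.5, 77.1, 58.6, 75.7 and 74 CPM in KO NASH (edgeR log2 fold change of -1.54 with an SE of 0.247, adjusted p = 0.000759). The KO libraries lay in a narrow band below all WT libraries, of which replicate 1 was the highest. Cyp2c37 was at 1482, 1729, 1169, 1450 and 1773 CPM in the WT NASH mice and 246, 444, 363, 377 and 232 CPM in KO NASH, without overlap (edgeR log2 fold change of -2.19 with an SE of 0.487, adjusted p = 0.0087). Cyp2c50 was at 1507, 1253, 1229, 3876 and 1442 CPM in the WT NASH mice and 657, 417, 727, 925 and 608 CPM in KO NASH, also without overlap (edgeR log2 fold change of -1.48 with an SE of 0.415, adjusted p = 0.0296). The male WT replicate 4 stood out at the top for Cyp2c50 but not for Cyp2c37.

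Cyp2d40 was at 36.8, 45.9, 40, 54.1 and 43.5 CPM in the WT NASH mice and 6.14, 12.1, 9.87, 23.9 and 5.03 CPM in KO NASH, without overlap (edgeR log2 fold change of -1.95 with an SE of 0.351, adjusted p = 0.00187). Cyp2c55 was at 2.19, 2.31, 3.88, 41.2 and 1.42 CPM in the WT NASH mice and 1.07, 1.45, 1.3, 2.16 and 1.45 CPM in KO NASH (edgeR log2 fold change of -2.73 with an SE of 0.755, adjusted p = 0.0274). Here the groups overlapped, the male WT replicate 4 stood far above the rest, and without it edgeR gave -0.72 with an adjusted p = 0.36.

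Cyp2r1 (chr7:114549682-114562972), which adds the 25-hydroxyl group to vitamin D in liver, was at 12.7, 14.4, 12.1, 42.7 and 13.6 CPM in the WT NASH mice and 4.26, 7.18, 8.26, 7.52 and 3.85 CPM in KO NASH, without overlap (edgeR log2 fold change of -1.61 with an SE of 0.365, adjusted p = 0.00987). The male WT replicate 4 was again the highest. Cyp2c68 (chr19:39688834-39741054) was at 555, 645, 469, 382 and 921 CPM in the WT NASH mice and 91.5, 210.4, 192, 122 and 82.7 CPM in KO NASH, without overlap (edgeR log2 fold change of -2.09 with an SE of 0.573, adjusted p = 0.0266). Cyp2g1 (chr7:26808892-26821205), best known from olfactory mucosa, was low throughout, at 2.32, 10.4, 4.48, 1.62 and 6.33 CPM in the WT NASH mice and 0.0426, 0.47, 0.124, 0.0958 and 0.136 CPM in KO NASH, without overlap (edgeR log2 fold change of -4.85 with an SE of 1.2, adjusted p = 0.016). For Cyp2c68 and Cyp2g1 the WT females were above the WT male. Cyp2c68 shares 43.3% of its 50-base stretches with other genes, 35.6% with Cyp2c40, so its counts may be split or shared.

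**Figure D3:**
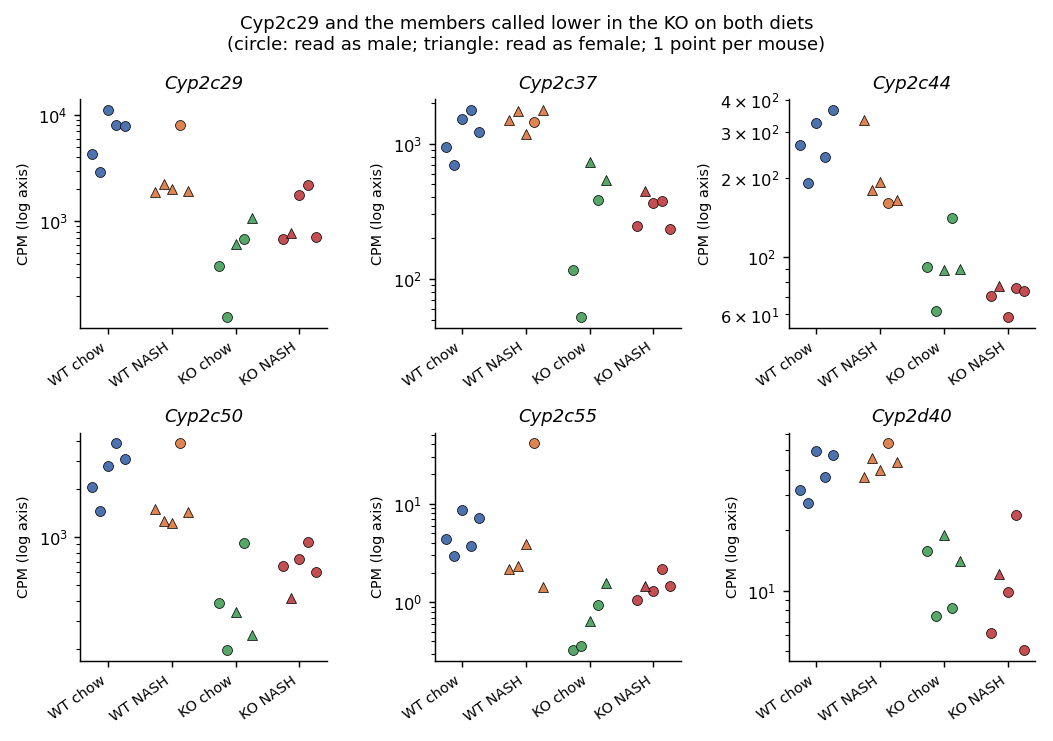
Levels in CPM (log axes) of Cyp2c29 and of the 5 members called lower in the KO on both diets, 1 point per mouse, circles read as male and triangles as female. The KO points lie below all WT points of the same diet for Cyp2c44, Cyp2c50 and Cyp2d40, while the male WT NASH mouse stands far above its group for Cyp2c29, Cyp2c50 and Cyp2c55.

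With sex as a term, 8 members were called on the NASH diet (4.33% of all genes), all lower, 7 of them shared. Cyp2c54 was added (log2 fold change -2.12, edgeR adjusted p = 0.00285), and Cyp2c68 (-1.29, edgeR adjusted p = 0.156) and Cyp2g1 (-3.18, edgeR adjusted p = 0.104) were not called. With sex and slope as terms, 7 were called (10.5% of all genes), all lower, 6 of them shared. Cyp2c37, Cyp2c68 and Cyp2g1 were not called in that model. Males alone, with a single WT male, gave a median log2 fold change of -1.15 over the members, with 20 of 30 negative. The median over all genes was 0.19 there, and Cyp2c29 was at -2.56. Females alone, with a single KO female, gave a median log2 fold change of -0.79 over the members and -0.01 over all genes. For males alone and for females alone only effect sizes are given, since 1 side is a single mouse. DESeq2 and limma were not run on the females alone. The 14 libraries of positive slope gave 14 members, 12 lower and 2 higher (Cyp2d9 at 4.02 and Cyp2j6 at 0.47), 8 of them shared, where 20.3% of all genes were called. That subset leaves out WT NASH 4, so every WT NASH library in it is female while KO NASH holds 1 female. Genotype and sex are almost fully mixed there. Leaving out KO NASH 1 or 5, the most similar pair of libraries, took the count of 9 to 6, beside 5.38% and 4.89% of all genes. Cyp2c50 and Cyp2c55 lost their calls without WT NASH 4 or KO NASH 1, 2, 3 or 5 (edgeR adjusted p up to 0.112 and 0.36), and Cyp2c68 without WT NASH 5 or KO NASH 1, 4 or 5 (edgeR adjusted p up to 0.0804). Cyp2c50 without WT NASH 4 stood at a log2 fold change of -1.03.

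Cyp2c29 did not pass the test on the NASH diet. It measured 1864, 2247, 1999, 8084 and 1935 CPM in the WT NASH mice and 687, 783, 1749, 2206 and 718 CPM in KO NASH (edgeR log2 fold change of -1.39 with an SE of 0.546, adjusted p = 0.111; 95% interval -2.55 to -0.23). The groups overlapped through KO replicate 4 alone, and WT replicate 4, the male, was within the range of the WT chow males. The difference between its fold changes on the 2 diets was 2.19 (SE 0.767), which edgeR did not call (adjusted p = 0.358). Cyp2c54 likewise was at 625, 277, 369.8, 1297 and 441 CPM in the WT NASH mice and 304, 83.9, 312, 306 and 275 CPM in KO NASH (edgeR log2 fold change of -1.23 with an SE of 0.476, adjusted p = 0.107), with an overlap between groups.

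**Figure D4:**
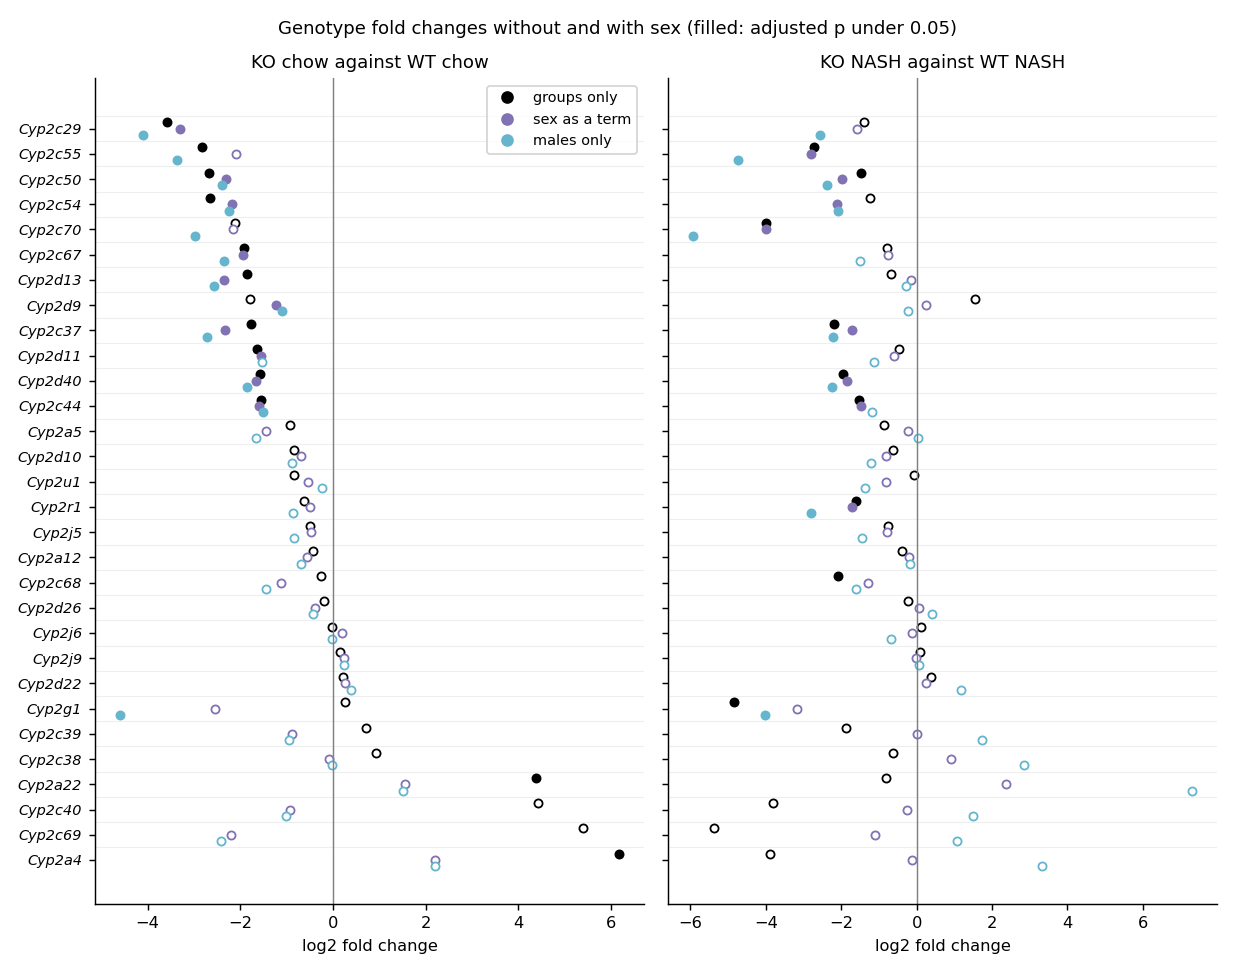
Log2 fold changes of KO against WT for the 30 tested members on chow (left) and on the NASH diet (right), from the model of groups alone (black), with sex as a term (purple) and in males only (blue), filled where the edgeR adjusted p is under 0.05. Cyp2c50, Cyp2c54, Cyp2d40 and Cyp2c37 stay negative in all 3, whereas Cyp2c40 and Cyp2c69 change sign on chow.

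Diet in WT mice called 4 of 30 members (13.3%), all higher in WT NASH, against 5.93% of all genes (2.69% higher and 3.24% lower). No member had all WT NASH libraries above all WT chow libraries (background 2.9%), and 1, Cyp2d9, had all below (background 3.25%). Cyp2a4 was at 235, 556, 399.9, 1.03 and 452 CPM in the WT NASH mice (edgeR log2 fold change of 7.07 with an SE of 1.56, adjusted p = 0.0109), against at most 4.02 CPM in the WT chow mice. Cyp2c69 (chr19:39842814-39886799) was at 855, 1072, 522, 0.589 and 1237 CPM in the WT NASH mice and 7.17, 2.17, 2.79, 3.23 and 2.98 CPM in the WT chow mice (edgeR log2 fold change of 7.65 with an SE of 2.15, adjusted p = 0.0402). Cyp2c40 (chr19:39767071-39812814), an arachidonic acid hydroxylase, was at 314, 237, 201, 1.18 and 560 CPM in the WT NASH mice and 8.29, 3.63, 6.67, 5.32 and 3.26 CPM in the WT chow mice (edgeR log2 fold change of 5.60 with an SE of 1.61, adjusted p = 0.0436). In all 3 genes the 4 females of WT NASH were high and the male, replicate 4, was below every WT chow male, so the groups overlapped. WT chow held no female. In males alone, where WT NASH is 1 mouse assumed to vary like the others, the log2 fold changes were -1.28, -2.67 and -2.23 for Cyp2a4, Cyp2c69 and Cyp2c40, none of them called by edgeR (adjusted p of 0.768, 0.378 and 0.331). Diet and sex therefore cannot be told apart for these 3 genes.

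Cyp2c70 was the exception. It measured 75.7, 86, 84.2, 425 and 136 CPM in the WT chow mice, and only WT chow replicate 4 reached into the WT NASH range (edgeR log2 fold change of 2.89 with an SE of 0.765, adjusted p = 0.0306). Both the females and the male of WT NASH were above the other 4 WT chow mice. In males alone the log2 fold change was 4.48 (edgeR adjusted p = 0.0152), and with sex as a term it was 2.86 (edgeR adjusted p = 0.0929, not called). Leaving out any 1 of the WT chow libraries or of the WT NASH females took the count of 4 to 1 or 2, beside 2.82% to 8.11% of all genes. The call of Cyp2c70 was lost without WT chow 1, 3 or 5 or WT NASH 4 (edgeR adjusted p up to 0.0875, log2 fold change down to 1.83). Cyp2c40 and Cyp2c69 lost theirs without any 1 of the WT chow libraries or of the WT NASH females (edgeR adjusted p up to 0.109 and 0.1), and Cyp2c40 also without KO chow 3 or KO NASH 3.

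With sex as a term, edgeR called 0 members for the diet in WT, beside 1.11% of all genes. DESeq2 and limma voom with sample quality weights, run without that term, called 7 and 21, beside 10.4% and 40.6% of all genes. Leaving out the male WT NASH 4 gave 10 calls, 5 in each direction, beside 11.7% of all genes, and that comparison sets 4 females against 5 males. Cyp2d9 was at 1582 ± 310.2 CPM in the WT chow mice and 199 ± 366 CPM in the WT NASH mice, with every WT NASH library below every WT chow library, and did not pass the test (edgeR log2 fold change of -2.99 with an SE of 1.04, adjusted p = 0.0954).

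Diet in KO mice called 0 members by edgeR, against 3.29% of all genes (1.77% higher and 1.52% lower). An unadjusted edgeR p under 0.05 was found for 4 of 30 members (Cyp2a4, Cyp2c39, Cyp2g1, Cyp2j9), beside 3199 of all 14440 genes tested. DESeq2 also called 0, beside 9.02% of all genes, and limma voom called 5, all higher in KO NASH, beside 12.7% of all genes. No member's groups were free of overlap, higher (background 4.19%) or lower (background 4.31%). Cyp2c29 averaged 575 ± 353 CPM in KO chow and 1228 ± 704 CPM in KO NASH (n = 5 each; log2 fold change 1.10, 95% interval -0.05 to 2.25). Among the 14 libraries of positive slope, 3 KO chow and 5 KO NASH mice, Cyp2c29 (1.73, edgeR adjusted p = 0.046), Cyp2c50 (1.12, edgeR adjusted p = 0.0227), Cyp2c55 (1.76, edgeR adjusted p = 0.0198) and Cyp2c70 (2.44, edgeR adjusted p = 0.0105) were called higher on the NASH diet, beside 7.69% of all genes. KO chow 4 and 5, left out there, have a negative slope. With the slope as a term, edgeR called 4 members, all higher (6.39% of all genes). With sex and slope as terms it also called 4, all higher (9.37% of all genes). The part of the slope in these levels was not tested beyond these fits.

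The test of whether the genotype difference changed with diet called 1 member, Cyp2a4, against 0.139% of all genes, 0.0554% with a positive and 0.0831% with a negative difference (edgeR log2 fold change of -10.08 with an SE of 2.01, adjusted p = 0.0451). Cyp2a4 was at 4.86, 70.4, 18.7, 12.8 and 3.99 CPM in KO NASH, where replicate 2, the only female, was highest. The KO minus WT log2 difference was 6.18 on chow, where the WT had no female, and -3.89 on the NASH diet, where the WT had 4. With sex as a term the interaction was -2.31, no longer called by edgeR (adjusted p = 0.8), and in males alone it was 1.11. It also lost its call without any 1 of 15 libraries, all except WT NASH 4, KO chow 1, 2 and 4 and KO NASH 2, with an edgeR adjusted p of up to 0.131.

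Sex read from the counts separated 8 members in each of the 3 groups that held both sexes. Females were above males for Cyp2a4, Cyp2a22, Cyp2c39, Cyp2c40, Cyp2c68, Cyp2c69 and Cyp2g1, and below for Cyp2d9. Of all genes tested, 1.09% had females above males in all 3 groups and 0.928% had them below. These are descriptions, since KO NASH had 1 female and WT NASH 1 male. Over all 20 libraries, 4 members had no overlap between 7 females and 13 males (background 0.45% of genes tested). Cyp2a4 was at 70.4 to 556 CPM in females and 1 to 29.6 CPM in males, and Cyp2c40 at 80.9 to 560 and 1.11 to 8.29 CPM. Cyp2c69 was at 83.7 to 1237 CPM in females and 0.192 to 7.17 CPM in males. Cyp2d9, the male-typical gene, was at 17.8 to 68.3 CPM in females and 554 to 1858 CPM in males. The partners whose promoters are shown above overlapped between the sexes: Cyp2a5 was at 252 to 918 CPM in females and 71.3 to 1432 CPM in males, and Cyp2d10 at 283 to 615 and 285 to 1296 CPM. Cyp2a4 shares 36.1% of its 50-base stretches with Cyp2a5, and Cyp2c69 46.5% with Cyp2c40. How counts were divided between such copies was not tested.

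The KO NASH female had the lowest of the 7 female levels for 5 of the 7 female-high genes, Cyp2a4, Cyp2c39, Cyp2c40, Cyp2c68 and Cyp2c69, but not for Cyp2a22 and Cyp2g1. Cyp2a4 was at 70.4 CPM in it, at 342 and 513 CPM in the 2 KO chow females and at 235 to 556 CPM in the 4 WT NASH females. Cyp2c40 was at 80.9 CPM against 161 to 560 CPM in the other 6 females, and Cyp2c69 at 83.7 CPM against 128 to 1237 CPM. Cyp2c39 was at 6.54 CPM in it, against 11.6 CPM or more, and Cyp2c68 at 210.4 CPM, against 303 CPM or more. Cyp2a22 was at 62.7 CPM in it, above the lowest WT NASH female at 29.6 CPM, and Cyp2g1 at 0.47 CPM, above a KO chow female at 0.247 CPM. A single female carries this and gives no replicate check. The male of WT NASH was the lowest of the 13 males for Cyp2c39 and Cyp2a22, at 1.03 and 0.147 CPM.

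**Figure D5:**
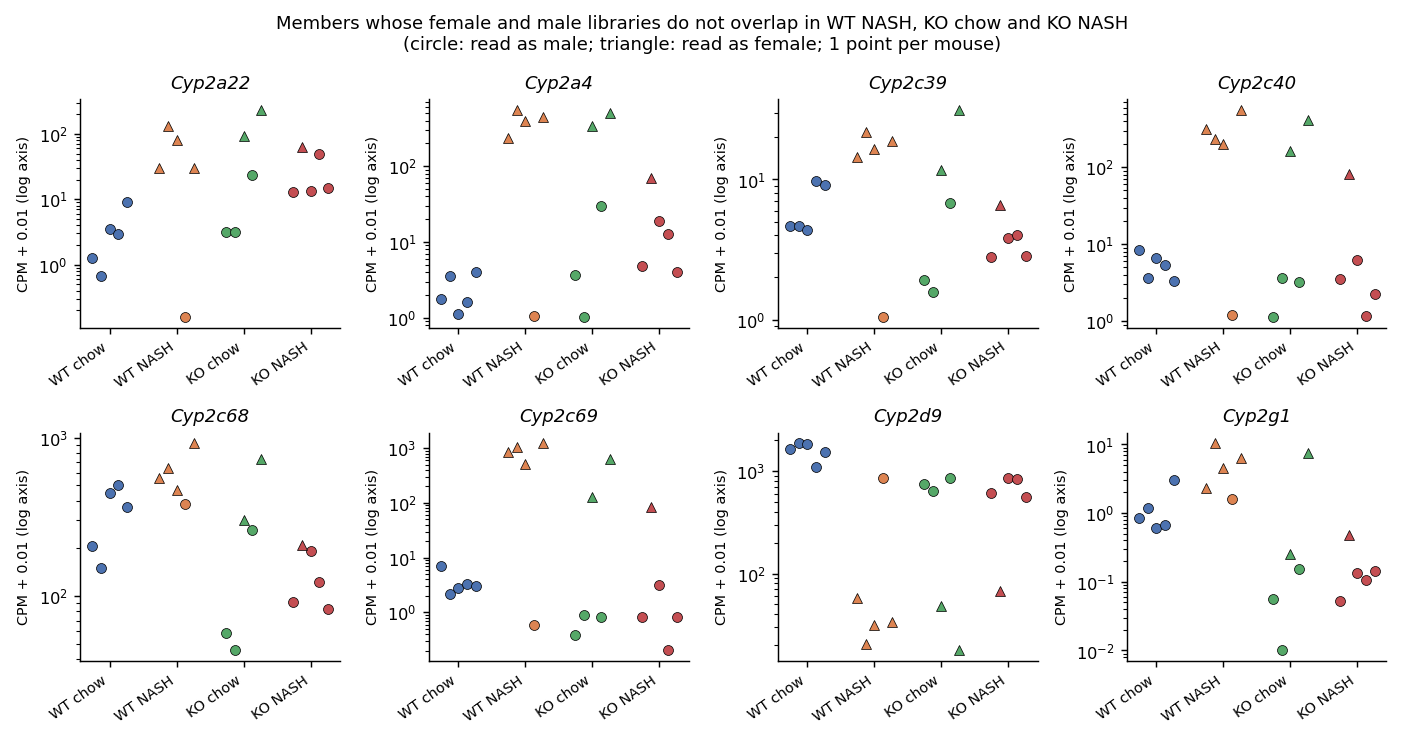
Levels of the 8 members whose female (triangle) and male (circle) libraries do not overlap in WT NASH, KO chow and KO NASH, in CPM + 0.01 on log axes, 1 point per mouse. For Cyp2a4, Cyp2c40 and Cyp2c69 all triangles lie above all circles, and for Cyp2d9 all lie below.

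Genes that serve these enzymes were called in some comparisons. Of 5 electron donors and partners (Por, Cyb5a, Cyb5b, Cyb5r3, Pgrmc1), none was called in KO chow, and in KO NASH against WT NASH Cyb5a (-1.92, edgeR adjusted p = 0.0374) and Cyb5b (-0.77, edgeR adjusted p = 0.0304), forms of cytochrome b5, were lower, though neither passed once sex was in the model (edgeR adjusted p of 0.0704 and 0.111). Cyb5b was higher for the diet in WT (1.27, edgeR adjusted p = 0.00202). Por, the P450 reductase, averaged 655, 394, 698 and 414 CPM in the WT chow mice, WT NASH, KO chow and KO NASH and was not called. Ephx2, the soluble epoxide hydrolase, was lower on the NASH diet in WT (-1.77, edgeR adjusted p = 9.4e-05) and in KO mice (-0.81, edgeR adjusted p = 0.0441) and was higher in KO NASH than in WT NASH (0.80, edgeR adjusted p = 0.025, and 0.132 with sex as a term), while Ephx1, the microsomal one, was not called. Alas1, the first enzyme of heme synthesis, was lower in WT NASH than in WT chow (-1.51, edgeR adjusted p = 0.0207, and 0.0929 with sex as a term), and Fech and Hmox1 were not called.

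Of 14 receptors and factors known to act on Cyp2 genes, 2 were lower in KO chow, Ahr (-1.06, edgeR adjusted p = 0.00847) and the growth hormone receptor Ghr (-0.93, edgeR adjusted p = 0.0276), and none was higher; both also passed once sex was in the model (-1.11 and -0.94, edgeR adjusted p of 0.0111 and 0.0402). On the NASH diet 3 were lower in the KO: Ahr (-0.78, edgeR adjusted p = 0.0301), Ghr (-1.09, edgeR adjusted p = 0.00812) and Cux2 (-5.21, edgeR adjusted p = 0.00389), a female-typical repressor, in groups of 1 and 4 females. Once sex was in the model, Ghr and Cux2 were called there (-1.08 and -3.16, edgeR adjusted p of 0.0289 and 0.0306) and Ahr was not (-0.71, edgeR adjusted p = 0.117). Higher in WT NASH than in WT chow were 4, Ahr (0.89), Stat5a (1.75), Stat5b (1.31) and Cux2 (4.73). In the model with sex, edgeR called none of these 4 (0.80, 1.46, 1.18 and 1.28, adjusted p of 0.191, 0.172, 0.204 and 0.525), and in males alone Cux2 was at -2.83, so diet and sex cannot be told apart. Ahr was higher in KO NASH than in KO chow (1.17, edgeR adjusted p = 0.0101). The nuclear receptors Nr1i2 and Nr1i3, which drug inducers of Cyp2c genes activate, were not called in any comparison. Among 6 pericentral genes, which mark the zone where many P450s are highest, none was called in KO chow. With sex as a term Lgr5 (-1.80) and Slc1a2 (-1.25) were called lower there (edgeR adjusted p of 0.0195 for each). Oat was lower in WT NASH than in WT chow (-1.24, edgeR adjusted p = 0.0211, and 0.0292 with sex as a term). Of 4 periportal genes, Hsd17b13 alone was called, also lower in WT NASH (-1.39, edgeR adjusted p = 0.0254, and 0.206 with sex as a term). The pericentral genes Glul (-0.75), Lgr5 (-1.65) and Rgn (-2.26) were lower in KO NASH than in WT NASH (edgeR adjusted p of 0.0385, 0.0471 and 0.00486). Rgn alone of the 3 was called once sex was in the model (edgeR adjusted p = 0.012). The sum of the 6 ranged from 2122 to 2596 CPM in KO NASH, 3379 to 5618 CPM in the WT NASH mice, 2319 to 5799 CPM in KO chow and 4034 to 6797 CPM in the WT chow mice, and its part in the Cyp2 levels was not tested. Of 5 tested genes of the other Cyp2 subfamilies, Cyp2b9 and Cyp2b13 were higher and Cyp2b10 was lower in KO chow (9.42, 9.46 and -1.77, edgeR adjusted p of 0.0017, 0.0243 and 0.0304). Once sex was in the model, Cyp2b9 (7.60, edgeR adjusted p = 0.00214) and Cyp2b10 (-1.35, edgeR adjusted p = 0.0344) were called on chow and Cyp2b13 was not (4.23, edgeR adjusted p = 0.128). Cyp2b9 and Cyp2b13 were also higher in WT NASH than in WT chow (9.53 and 11.52, edgeR adjusted p of 0.00139 and 0.00919), and the genotype difference of Cyp2b9 changed with diet (-9.80, edgeR adjusted p = 0.0348). The model with sex called no 1 of these 3 differences (6.52, 5.15 and -5.37, edgeR adjusted p of 0.1, 0.197 and 0.607).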

How the data were processed

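Liver RNA of 20 mice was sequenced. Reads were aligned with HISAT2 2.0.4 to GRCm38, per the submitters' processing notes; the sources used here do not name the counting program, annotation or use of strand. The authors deposited raw counts per gene symbol, 1 column per library, none pooled. Counts were tested in R 4.3.3 with edgeR 4.0.16 (filterByExpr with a minimum count of 10, TMM, 1 quasi-likelihood model of 4 groups over 20 libraries, Benjamini-Hochberg adjustment over 14440 genes, called under 0.05). Fold changes are unshrunken, with the SE that the F statistic implies, and 95% intervals use 16 residual degrees of freedom. CPM are counts scaled by the TMM library size. A library with at least 100 Y-linked counts was read as male. Gene positions and lengths are from GENCODE M21, with Cyp2c44 found under its other symbol Cyp2c23; 93.3% of tested genes had a length, and slopes used 9462 genes of mean log2 CPM of at least 2. Members and gene lists were chosen with earlier results of these data known. Values in all libraries are given for up to 8 called members of smallest adjusted p per comparison with a group mean of at least 5 CPM and for those called in both genotype comparisons or the interaction. Shared stretches are 50-base runs of a gene's transcripts found in another gene's. The tests were checked on simulated counts. Alternatives included limma 3.58.1 voom with sample quality weights (limma voom in this text), DESeq2 1.42.0, other scalings and filters, terms for sex, slope and replicate number, and subsets of libraries. The fits on libraries of 1 slope sign and on females only were added after seeing the data. The depth of 9958935 to 20601955 counts makes 1 CPM 6.8 to 24.9 counts.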

Additional observations from a re-analysis of the deposited data

Results flagged for a closer look

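Of 120 sets of 5 libraries (30 members in 4 groups), 23 had 1 library far from the other 4 by Dixon's test; chance flags about 1 in 20 groups, and the 23 share libraries and related genes. In WT NASH the only male, replicate 4, was the highest for Cyp2c29 (8084 CPM), Cyp2c50 (3876 CPM), Cyp2c55 (41.2 CPM), Cyp2c70 (3650 CPM), Cyp2d9 (853 CPM), Cyp2j5 (1801 CPM), Cyp2j6 (186 CPM) and Cyp2r1 (42.7 CPM) and the lowest for Cyp2c38 (16.3 CPM). That library also had the fewest counts and a negative length slope, and the part of sex, slope and depth in these values cannot be told apart. In KO NASH the only female, replicate 2, was the highest for Cyp2a4 (70.4 CPM), Cyp2c40 (80.9 CPM), Cyp2c69 (83.7 CPM) and Cyp2g1 (0.47 CPM) and the lowest for Cyp2c54 (83.9 CPM) and Cyp2d22 (182 CPM). In KO chow the female replicate 5 was the highest for Cyp2c69 (639.5 CPM) and Cyp2g1 (7.41 CPM), and the male replicate 4 for Cyp2c50 (921 CPM) and Cyp2c54 (408 CPM); both libraries have a negative length slope. The others were Cyp2c44 in WT NASH replicate 1 (335 CPM), Cyp2c69 in WT chow replicate 1 (7.17 CPM), Cyp2c70 in WT chow replicate 4 (424.5 CPM) and Cyp2g1 in WT chow replicate 5 (3.05 CPM).

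The KO minus WT difference of Cyp2a4 changed between the diets by -10.08 on the log2 scale (interaction term, edgeR adjusted p = 0.0451), in groups that differ in their share of females.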

How the results depend on the processing

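The counts of called members for the diet in WT, the genotype on chow, the genotype on the NASH diet, the diet in KO and the interaction were 4, 12, 9, 0 and 1. Of all genes tested, 5.93%, 5.53%, 9.65%, 3.29% and 0.139% were called, and shares of all genes stand in parentheses below. The labels number mice 1 to 5 in each group, but the numbers do not pair them: the 30 same-numbered pairs correlated at -0.41 to 0.49, with 13 over 0.1, and 5 of 20 libraries matched their own number best. With a replicate block the counts were 4, 13, 10, 0 and 0 (7.11%, 6.11%, 10.1%, 3.7% and 0.0277%). Leaving out each library in turn gave 1 to 10, 7 to 13, 6 to 10, 0 to 0 and 0 to 4. The share of all genes called ranged over 2.82% to 11.7%, 2.37% to 8.32%, 4.89% to 11.8%, 1.01% to 5.4% and 0.0272% to 0.981%. Diet in WT gave 7 calls by DESeq2 (10.4%), 21 by limma voom (40.6%), 0 with sex as a term (1.11%), 10 with the slope (12.1%) and 2 with both terms (5.01%). In males only and in the 6 libraries of negative slope, WT NASH is 1 mouse. The median log2 fold changes there were -0.42 and -0.62 over the members, and -0.09 and -0.05 over all genes. KO chow gave 19 by limma voom (40.4%), 7 in the 14 libraries of positive slope (5.33%) and 1 in the 6 of negative slope (0.353%), where 2 KO mice face 3 WT mice. KO NASH against WT NASH gave 14 in the libraries of positive slope (20.3%), where WT NASH holds no male. Diet in KO gave 5 by limma voom (12.7%), 4 with the slope (6.39%), 4 with both terms (9.37%) and 4 in the libraries of positive slope (7.69%). The interaction gave 3 by DESeq2 (1.31%), 7 by limma voom (13.5%, none of the 7 being Cyp2a4) and 2 with the slope (1.32%). It gave 0 with a mean of at least 5 CPM (0.126%) or with KO NASH 1 and 5 summed (0.0274%). With sex it also gave 0 (0.0277%), as it did with sex and slope (0.499%). limma voom, run with weights for the quality of each library, called 40.6% of all genes for the diet in WT and 40.4% for KO chow. The cause of these differences was not tested.

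The sign reversed for Cyp2a4 in males only (-1.28) and in the libraries of negative slope (-1.26) for the diet in WT. Cyp2c40 reversed there with sex as a term (-0.75), with sex and slope (-0.54), in males only (-2.23) and with negative slope (-2.19), and Cyp2c69 likewise (-0.88, -0.55, -2.67 and -2.45). The Cyp2a4 interaction reversed in males only (1.11). Over the 26 gene differences called, 759 values under alternatives kept direction and call and 159 the direction only. Differences that were not called are outside this count, and some reversed: with sex as a term Cyp2c40 and Cyp2c69 in KO chow (-0.92 and -2.19) and Cyp2c39 for the diet in WT (-1.20), and in males only Cyp2a22 for the diet in WT (-4.56). Members near 1 CPM, such as Cyp2d11, rest on few counts.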
